A study of Mus musculus with 24 samples.

Results

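The regions described here are those whose nearest gene belongs to the cytochrome P450 families Cyp1, Cyp2 and Cyp3 in mouse liver. They were chosen by name alone, as every row of the authors' annotated table with a gene name that starts with Cyp1, Cyp2 or Cyp3 followed by a letter. That gave 207 of 63686 regions and 53 of 16313 gene names. The largest groups were Cyp2c with 48 regions, Cyp2d with 45, Cyp3a with 30 and Cyp2a with 23. Cyp1b1 was looked for by name and had no region in the table.

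ChIP-seq was run on whole liver of 12 male C57BL/6J mice, 9 weeks old, for H3K27ac, the acetylation of histone H3 that active promoters and enhancers carry. All mice carried Gata4 fl/fl, a floxed gene for a zinc-finger transcription factor. At 8 weeks they received AAV8-Tbg-Cre, in which the hepatocyte promoter Tbg drives Cre (knockout), or an empty AAV8 without Cre (control), and liver was taken 7 days later. Each genotype was split into mice fasted for 12 h and mice refed for 12 h, after a 12 h fast, with a high sucrose diet (69% sucrose, 10% fat), which gave 4 groups of 3 mice. All mice were killed in the same morning hours, so the fast of the fasted mice ran through the night and that of the refed mice through the day before their meal. Mouse numbers in the labels are common to a group and differ from group to group, and what they stand for, such as a cage or a litter, is not stated. Time since the fast, diet and time of feeding likewise differ together between fasted and refed mice and cannot be told apart.

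Cytochromes P450 are haem enzymes that insert oxygen into fat-soluble molecules. Those of families Cyp1, Cyp2 and Cyp3 sit in the endoplasmic reticulum, receive electrons from NADPH through P450 oxidoreductase, and clear drugs, plant toxins, steroids and fatty acids. Their genes arose by repeated duplication and lie in clusters, and many are switched on by sensor proteins such as the aryl hydrocarbon receptor (Ah receptor), the constitutive androstane receptor CAR and the pregnane X receptor PXR. In liver many of them are most active in the hepatocytes around the central vein.

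Some of the start sites that the results turn on are shown first, as the 250 bases before the RefSeq start site, 5' to 3' on the gene's strand, in the build GRCm38.p6. Capitals mark matches, on either strand, to GATAA (the core bound by GATA factors), GCGTG (the core bound by the Ah receptor) or AGGTCA (the half-site of nuclear receptors). The coordinates of these promoters are those of GRCm38.p6, whereas all region coordinates further on are those of mm9, the build of the deposited table. The start sites of Cyp2c37 (chr19:39992174-39992423), Cyp2c50 (chr19:40089429-40089678), Cyp3a59 (chr5:146079008-146079257) and Cyp2e1 (chr7:140763569-140763818) lie within regions whose acetylation fell after refeeding.
Cyp2c37: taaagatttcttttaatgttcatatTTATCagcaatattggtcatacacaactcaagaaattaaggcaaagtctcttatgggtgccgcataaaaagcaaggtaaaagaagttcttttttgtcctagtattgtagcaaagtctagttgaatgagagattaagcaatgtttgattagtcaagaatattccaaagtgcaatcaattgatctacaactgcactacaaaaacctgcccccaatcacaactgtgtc
Cyp2c50: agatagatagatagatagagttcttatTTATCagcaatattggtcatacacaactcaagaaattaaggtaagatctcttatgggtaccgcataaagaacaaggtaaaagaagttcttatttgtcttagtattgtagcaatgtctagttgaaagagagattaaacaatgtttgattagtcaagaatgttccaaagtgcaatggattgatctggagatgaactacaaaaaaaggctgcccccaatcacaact
Cyp3a59: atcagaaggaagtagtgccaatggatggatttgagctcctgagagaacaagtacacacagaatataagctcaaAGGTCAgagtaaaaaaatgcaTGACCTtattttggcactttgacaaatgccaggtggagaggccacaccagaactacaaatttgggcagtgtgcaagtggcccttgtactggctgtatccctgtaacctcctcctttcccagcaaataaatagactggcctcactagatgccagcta
Cyp2e1: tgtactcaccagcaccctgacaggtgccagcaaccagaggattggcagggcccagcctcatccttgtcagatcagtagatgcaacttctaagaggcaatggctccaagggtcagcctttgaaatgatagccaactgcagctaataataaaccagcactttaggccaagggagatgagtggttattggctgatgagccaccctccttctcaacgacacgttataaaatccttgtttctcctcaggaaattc

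The first 2 of these are close copies, identical at 84.3% of aligned positions, and each holds a GATAA match on the minus strand. Cyp3a59 holds a pair of AGGTCA half-sites facing each other, and Cyp2e1 holds no match in this window. Cyp2b10 (chr7:25897408-25897657) and Cyp2j9 (chr4:96591486-96591735, minus strand) are shown because a region of each was called different between control and knockout liver after refeeding, in opposite directions. The called region of Cyp2j9 lies well upstream of its start site and does not hold the promoter shown here.
Cyp2b10: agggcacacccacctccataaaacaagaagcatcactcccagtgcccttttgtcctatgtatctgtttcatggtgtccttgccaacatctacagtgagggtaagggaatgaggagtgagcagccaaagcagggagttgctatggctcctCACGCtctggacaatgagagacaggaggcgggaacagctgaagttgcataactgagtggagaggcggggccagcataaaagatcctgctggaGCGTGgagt
Cyp2j9: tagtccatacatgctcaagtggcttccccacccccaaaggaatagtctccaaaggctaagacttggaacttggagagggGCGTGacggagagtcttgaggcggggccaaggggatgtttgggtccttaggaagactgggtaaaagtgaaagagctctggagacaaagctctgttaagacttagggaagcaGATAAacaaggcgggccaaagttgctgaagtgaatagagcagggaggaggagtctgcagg

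Cyp2b9 (chr7:26173159-26173408) and Cyp2b13 (chr7:26061245-26061494) are shown as a near-identical pair, with 99.2% of aligned positions the same, because their regions were at or near 0 in the same libraries. The strongest of these regions are centred -3583 bp (Cyp2b9) and -6129 bp (Cyp2b13) from the start sites.
Cyp2b9: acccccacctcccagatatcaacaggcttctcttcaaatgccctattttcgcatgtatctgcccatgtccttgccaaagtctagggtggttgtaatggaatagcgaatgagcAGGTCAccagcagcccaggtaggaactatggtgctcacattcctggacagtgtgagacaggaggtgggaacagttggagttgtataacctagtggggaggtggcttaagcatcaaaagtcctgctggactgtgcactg
Cyp2b13: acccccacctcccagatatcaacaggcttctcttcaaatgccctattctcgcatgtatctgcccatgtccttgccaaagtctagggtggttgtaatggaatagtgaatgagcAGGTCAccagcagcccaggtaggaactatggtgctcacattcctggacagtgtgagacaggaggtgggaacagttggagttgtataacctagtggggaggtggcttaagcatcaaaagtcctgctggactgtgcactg

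RefSeq promoters matched 43 of the 53 genes by symbol. GATAA was found in 20 of the 43 (46.5%), against 22.6% of all 32851 promoters of the same length. AGGTCA was found in 14 (32.6%) against 14.0%, and GCGTG in 6 (14.0%) against 28.2%. TTCNNNGAA (the core bound by STAT proteins) was found in 1 (2.33%) against 7.02%. Both strands were searched for each motif. These counts describe sequence, and copies of one ancestor are not independent of each other.

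Reads in regions numbered 22.2 to 30.4 M per library. Values below are the authors' normalized reads per region, and changes are log2 ratios of the value plus 1 with their SE from a limma fit over all regions. A region was called at an adjusted p under 0.05 (Benjamini-Hochberg, over the 63686 regions of the table), and only called regions are said to have risen or fallen. Each region is known by its nearest start site, so one in a cluster may act on another gene than the one it is named for. How reads that map to several near-identical genes were counted is not given in the sources used here, so values within a subfamily may be shared between copies. Gata4 itself cannot be checked by this mark: its largest region, over the start site, held 3594 ± 168 normalized reads in control fasted and 4071 ± 167 in knockout fasted liver (SD, n = 3), with no call. In whole liver, fewer cells of a type and less acetylation per cell cannot be told apart.

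The Cyp regions were much like others in width, with a median of 1604 bp against 1556 bp over all regions. They lay between genes in 60.9% of cases against 34.4% of all regions, in introns in 27.1% against 51.2%, and at promoters in 5.80% against 6.93%. A GATA4 ChIP peak of the authors lay within 500 bp of 15 Cyp regions, which is 7.25% against 8.31% of all regions. The strongest region of each gene, that with the highest mean over the 12 libraries, ranged from 14.5 normalized reads at Cyp2ab1 to 6023 at Cyp2d9, a male-predominant steroid hydroxylase whose strongest region was 29177 bp wide. Per kilobase the densest of the strongest regions was that of Cyp2d22, with 353 normalized reads per kb, ahead of Cyp2r1 with 280.

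Acetylation fell at many Cyp genes of control liver after refeeding. Of the 207 regions, 60 (29.0%) fell and 15 (7.25%) rose, against 16.8% and 13.2% of all regions, or 36.2% called in either direction against 30.0%. The median change was -0.36 over the Cyp regions and -0.03 over all regions. Together the Cyp regions held 0.423%, 0.392% and 0.350% of the total value in the control fasted libraries, and 0.346%, 0.292% and 0.321% in the control refed ones, with every fasted library above every refed one. Counting the strongest region of each of the 53 genes, 18 fell and 8 rose. No such count was made over the strongest regions of all genes, so these have no background share.

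**Figure D1:**
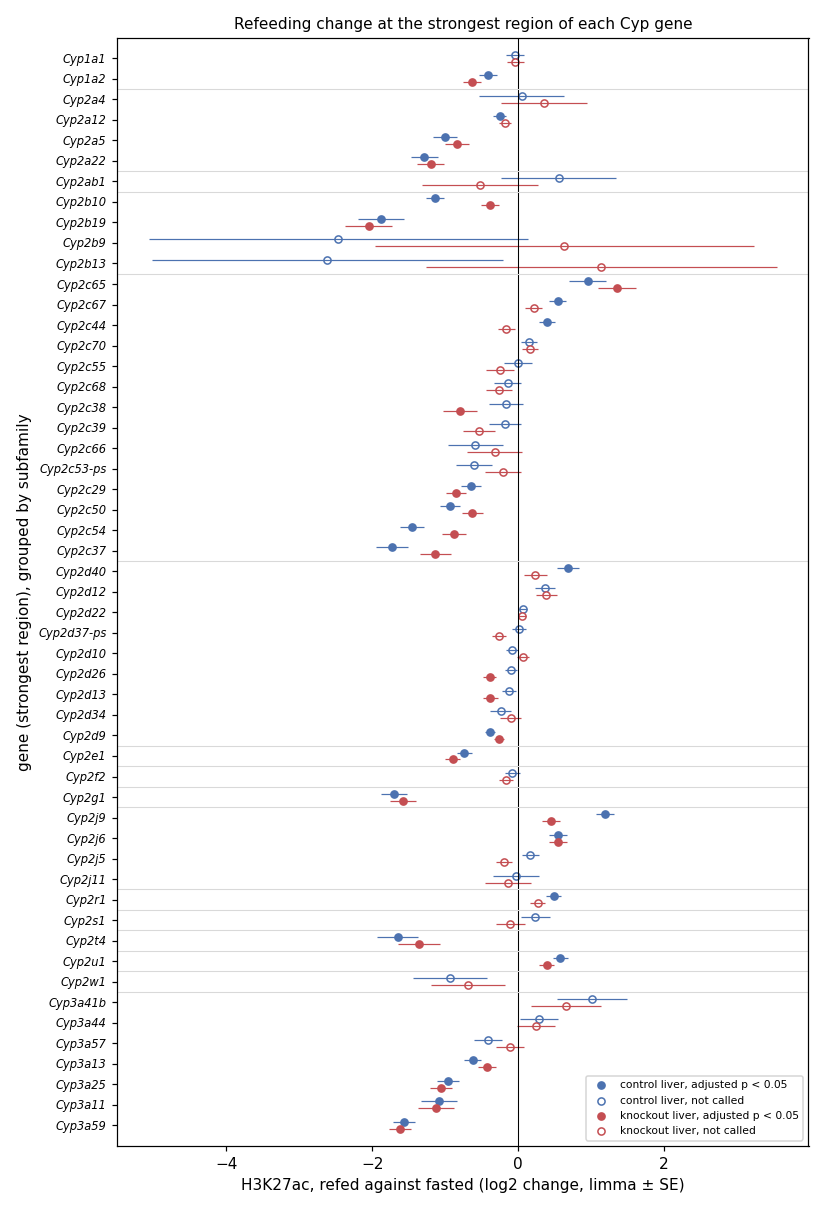
Change in H3K27ac between refed and fasted liver at the strongest region of each Cyp gene, in log2 units with the SE of the limma fit, for control (blue) and knockout (red) mice, 3 libraries per group. Filled points have an adjusted p under 0.05: 18 genes fell and 8 rose in control liver, 20 fell and 4 rose in knockout liver, and the wide bars belong to Cyp2b9 and Cyp2b13. No such count was made over the strongest regions of all genes.

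Cyp2e1, which oxidises ethanol, acetone and other small molecules, had 7 regions, of which 5 fell in control liver and none rose. Its strongest region (chr7:147938861-147955745, spanning the start site) held 5555, 4904 and 4690 normalized reads in control fasted and 3602, 2559 and 2978 in control refed liver. In knockout liver the values were 4640, 4824 and 4646 when fasted and 2604, 2369 and 2612 when refed. All 6 refed libraries lay below all 6 fasted ones. The change was -0.74 ± 0.10 in control (limma, adjusted p = 5.98e-05) and -0.90 ± 0.10 in knockout liver (adjusted p = 1.74e-05). Upstream, the change was -1.27 ± 0.14 at the neighbouring region (chr7:147931476-147938224) and -2.92 ± 0.35 at the most distant one (chr7:147920372-147922275), where the control mean went from 104 ± 27.3 to 13.8 ± 7.83 (SD, n = 3).

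The Cyp3a subfamily, which holds the main steroid and drug hydroxylases of liver, had 15 of 30 regions that fell in control liver and 1 that rose. Cyp3a11, an enzyme induced through PXR, had 6 of 7 regions that fell. Its strongest region (chr5:146706914-146719247, upstream of the gene) held 2380, 2829 and 1686 normalized reads in control fasted and 1536, 679 and 1134 in control refed liver. The groups did not overlap, but the lowest fasted and highest refed library came near each other, and the change was -1.09 ± 0.25 (limma, adjusted p = 0.00420). At its start site (chr5:146686323-146695505) the fall was smaller, at -0.64 ± 0.15 (adjusted p = 0.00498). Cyp3a25, with the widest called region of the subfamily (chr5:146813389-146837306, over the start site), went from 5308 ± 879 to 2766 ± 732 normalized reads (SD, n = 3), a change of -0.96 ± 0.15 (adjusted p = 0.000214).

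Cyp3a59 had 4 of 6 regions that fell, in both genotypes. Upstream of its promoter (chr5:146879383-146886272) the control fasted libraries held 702, 763 and 474 normalized reads and the control refed ones 199, 89.1 and 143. In knockout liver the same region held 927, 795 and 1156 when fasted and 208, 234 and 227 when refed. Every refed library was thus far under every fasted one, and the changes were -2.21 ± 0.24 in control (limma, adjusted p = 7.96e-06) and -2.08 ± 0.24 in knockout liver (adjusted p = 2.21e-05). The region over the start site shown above, with its pair of AGGTCA half-sites, went from 753 ± 129 to 255 ± 57.3 in control liver (SD, n = 3) and changed by -1.57 ± 0.15 (adjusted p = 2.89e-06). Cyp3a13, on the same chromosome but in a place of its own, fell by 0.63 at its strongest region (adjusted p = 0.00105). Cyp3a44, a female-predominant gene, was the exception that rose, from 41.2, 5.51 and 41.3 to 103, 42.7 and 63.9 normalized reads (chr5:146611233-146612720). The groups touch, with the lowest refed library at 42.7 and the highest fasted one at 41.3, and the call (1.55 ± 0.55, adjusted p = 0.0445) was lost in 8 of 12 fits that left out 1 library, with an adjusted p of 0.0190 to 0.161 over the 12. It was kept without control fasted replicate 1 or 3, control refed replicate 2 or knockout refed replicate 3. It was also lost after median-ratio rescaling, by edgeR and with only the groups compared (adjusted p up to 0.102).

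In the Cyp2c subfamily, on chromosome 19, 8 of 48 regions fell and 4 rose, against 16.8% and 13.2% of all regions. The share that fell was thus near the background. Cyp2c37, which the promoter above belongs to, held 490, 385 and 363 normalized reads in control fasted and 160, 115 and 101 in control refed liver (chr19:40063298-40067920, over the start site). These groups lay far apart, with a change of -1.73 ± 0.22 (limma, adjusted p = 3.22e-05). Its neighbours Cyp2c54 and Cyp2c50 fell by 1.46 and 0.94 at their start sites (adjusted p = 1.02e-05 and 0.000137). Cyp2c29, a drug oxidase in the same cluster, went from 1382 ± 297 to 869 ± 74.6 (SD, n = 3; chr19:39356548-39364313) and changed by -0.65 ± 0.14 (adjusted p = 0.00213).

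Cyp2c70, which makes the muricholic acids of mouse bile, showed both outcomes. An intronic region (chr19:40252153-40253753) fell from 171, 137 and 127 to 39.3, 31.5 and 27.5 normalized reads, a change of -2.12 ± 0.22 (limma, adjusted p = 5.65e-06). Its strongest region (chr19:40292511-40303585) held 1802, 1574 and 1482 in control fasted and 1938, 1480 and 1991 in control refed liver, where the groups overlap, and was not called (0.15 ± 0.11, adjusted p = 0.345). Cyp2c67 rose over its start site (chr19:39717186-39725558), from 1656, 1477 and 1419 to 2278, 2260 and 2067 normalized reads, with no overlap (0.54 ± 0.12, adjusted p = 0.00347). Cyp2c65 rose by 0.95 ± 0.26 at a weak region (adjusted p = 0.0115), from 35.2 ± 9.60 to 68.0 ± 11.7 normalized reads (SD, n = 3), a call lost without control refed replicate 3 (adjusted p = 0.0548).

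**Figure D2:**
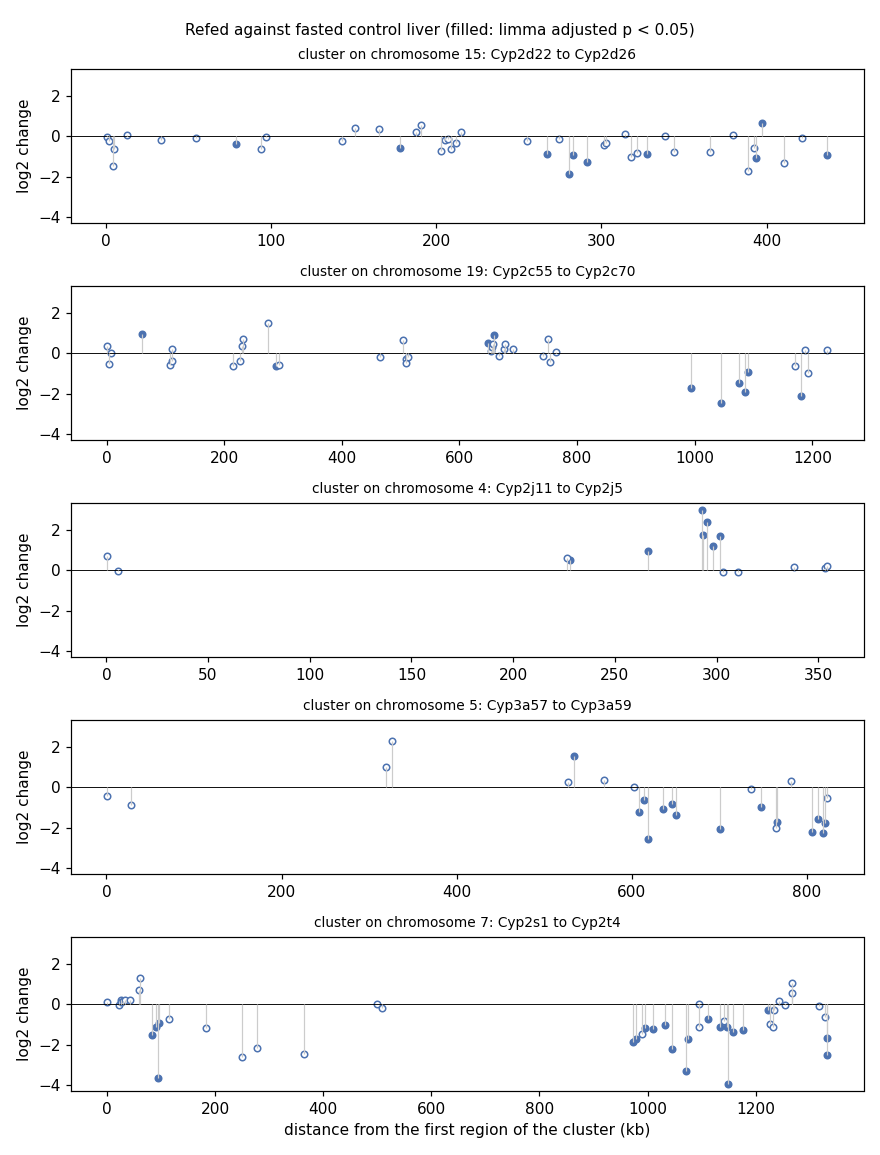
Change in H3K27ac between refed and fasted control liver for every Cyp region of the 5 clusters with 4 or more genes, against the distance in kb from the first region of the cluster. Filled points have a limma adjusted p under 0.05. On chromosome 4 all 7 called regions rose, on chromosome 7 all 21 called regions fell, and on chromosome 5 the called regions were 13 that fell and 1 that rose.

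The cluster on chromosome 7 with the Cyp2a, Cyp2b, Cyp2f, Cyp2g, Cyp2s and Cyp2t genes had 50 regions over 1333 kb, of which 21 fell and none rose in control liver. Cyp2a5, a coumarin and nicotine hydroxylase of pericentral hepatocytes, fell at all 4 of its regions, and its strongest (chr7:27613284-27631306, over the start site) went from 1857, 1448 and 1335 to 825, 565 and 958 normalized reads. The refed libraries all lay under the fasted ones (limma, adjusted p = 0.000276). A region named for Cyp2g1, an enzyme best known from olfactory tissue, held 1441, 1061 and 907 normalized reads in control fasted and 353, 270 and 422 in control refed liver (chr7:27565502-27571547). It lies -25422 bp from that start site, between genes, and changed by -1.70 ± 0.18 (adjusted p = 6.65e-06). The region named for Cyp2b19 next to it changed by -1.88 ± 0.32 (adjusted p = 0.000421), and those of Cyp2a22 and Cyp2t4 by -1.29 ± 0.18 and -1.65 ± 0.28 (adjusted p = 9.36e-05 and 0.000451).

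Not all of that cluster moved. Cyp2f2, a naphthalene-oxidising enzyme of periportal hepatocytes and of the lung, held 3991, 3747 and 3383 normalized reads in control fasted and 3276, 3738 and 3494 in control refed liver (chr7:27899396-27917627, over the start site). The groups overlap, and the change of -0.08 had a 95% interval of half-width 0.21 (limma, adjusted p = 0.588). Cyp2s1 had 7 regions and no call in either genotype. Cyp2a12 fell by 0.25 at its start site (limma, adjusted p = 0.0414), a call lost by edgeR and DESeq2 and in 6 of 12 fits without 1 library, with an adjusted p up to 0.157. Those libraries were control fasted replicates 1 and 2, all control refed ones and knockout refed replicate 2.

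In the Cyp1a pair, known for metabolism of caffeine and of aromatic pollutants, one gene was called. Cyp1a2 held 2572, 2563 and 1975 normalized reads in control fasted and 1829, 1572 and 1905 in control refed liver (chr9:57526570-57537982, over the start site), without overlap but with the third fasted library close to the refed ones. The change was -0.42 ± 0.12 (limma, adjusted p = 0.0178), and the call was lost in 3 of 12 fits that left out 1 library, those without control fasted replicate 1, control fasted replicate 2 or control refed replicate 2, where the adjusted p reached 0.0841. Cyp1a1 held 581, 523 and 622 in control fasted and 508, 542 and 629 in control refed liver (chr9:57541272-57547054), with overlapping groups and no call (adjusted p = 0.831).

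Of the 45 Cyp2d regions 9 fell and 1 rose in control liver, against 16.8% and 13.2% of all regions. The wide region of Cyp2d9 (chr15:82262504-82291680) went from 7176, 7099 and 6820 to 5917, 4919 and 5306 normalized reads, a modest fall without overlap (-0.39 ± 0.07, limma adjusted p = 0.000627). Cyp2d22, the densest region, held 4947 ± 275 and 5181 ± 122 (SD, n = 3; chr15:82204354-82217642, at the promoter) and was not called (adjusted p = 0.410). Cyp2d40 rose at its promoter (chr15:82592307-82597840), from 1048, 997 and 677 to 1719, 1217 and 1397, by 0.68 ± 0.16 (adjusted p = 0.00396). Of its 7 regions 5 had a change below 0 in control liver, and 1 of these, a weak intronic one (chr15:82591088-82592026), fell by 1.08 (adjusted p = 0.0151), a call lost without control fasted replicate 3 or control refed replicate 3 (adjusted p up to 0.0740).

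The genes that rose were led by Cyp2j, a subfamily of fatty acid oxidases known for making epoxides of arachidonic acid. Of its 15 regions 7 rose and none fell in control liver. All 6 regions of Cyp2j9 were among the 7. The strongest (chr4:96287857-96292189, -31847 bp from the start site) held 734, 651 and 596 normalized reads in control fasted and 1507, 1533 and 1452 in control refed liver. These groups lay more than the range of either apart, and the change was 1.18 ± 0.12 (limma, adjusted p = 5.20e-06). Over the start site shown above (chr4:96256853-96260012) the values went from 237 ± 31.3 to 466 ± 40.8 (SD, n = 3), a change of 0.98 ± 0.15 (adjusted p = 0.000127). Cyp2j6 rose by 0.54 ± 0.12 at its start site (adjusted p = 0.00367), whereas Cyp2j5 was not called at its own (0.17 ± 0.11, adjusted p = 0.287). In knockout liver 4 of the 15 Cyp2j regions rose and 1 fell.

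Outside Cyp2j, single regions rose. Cyp2u1, a fatty acid hydroxylase, held 2363, 2571 and 1881 normalized reads in control fasted and 3762, 3256 and 3080 in control refed liver (chr3:131001372-131019463, over the start site), without overlap (0.57 ± 0.10, limma adjusted p = 0.000644). A smaller intronic region of the same gene (chr3:130998209-131000001) fell, from 176 ± 10.6 to 115 ± 10.7 in control liver (SD, n = 3), by 0.61 in control and 0.97 in knockout liver (adjusted p = 0.0130 and 0.000783). Cyp2r1, a vitamin D hydroxylase, held 783, 730 and 617 in control fasted and 1071, 974 and 926 in control refed liver (chr7:121705545-121708501, at the promoter), again without overlap (0.48 ± 0.10, adjusted p = 0.00246). Cyp2c44, an arachidonic acid epoxygenase, went from 2053 ± 302 to 2681 ± 170 (SD, n = 3; chr19:44092329-44105685) and changed by 0.39 ± 0.11 (adjusted p = 0.0161), a call lost without control fasted replicate 3 or control refed replicate 3, where the adjusted p reached 0.0805. Another region named for Cyp2c44 (chr19:44114461-44119903) fell by 0.60 in control liver (adjusted p = 0.00377), from 539 ± 29.8 to 358 ± 63.0.

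**Figure D3:**
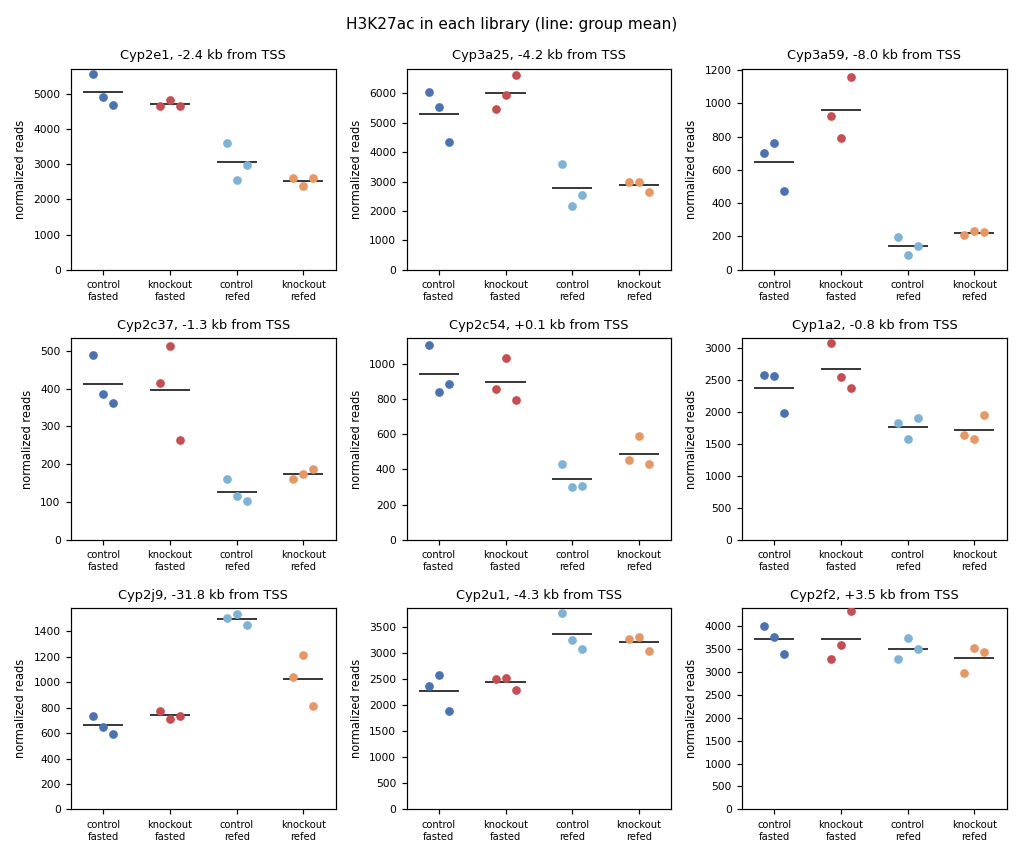
Normalized H3K27ac reads in each of the 12 libraries at 9 Cyp regions, named by gene and by the distance of the region's centre from the start site, with a line at each group mean and axes that start at 0. At Cyp2e1, Cyp3a25, Cyp3a59, Cyp2c37 and Cyp2c54 every refed library lies below every fasted one, at Cyp2j9 and Cyp2u1 every refed library lies above, and at Cyp2f2 the groups overlap.

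By the lists of regulators and zones, the strongest regions of all 7 pericentral genes listed (Cyp1a2, Cyp2a5, Cyp2c29, Cyp2c37, Cyp2c50, Cyp2e1 and Cyp3a11) fell in control liver, with a median change of -0.94. Over all 26 regions of these genes 20 fell and none rose, against 16.8% and 13.2% of all regions of the table. The lists were chosen with earlier results of these data known and hold no set of periportal genes. These counts therefore describe the listed genes and do not test a zone. Of the 4 genes known to respond to CAR and PXR, Cyp2b10, Cyp2c29 and Cyp3a11 fell at their strongest region, and Cyp2c55 did not pass (0.00 ± 0.19, limma adjusted p = 0.994). Of 8 female-predominant genes 5 had a region, and none of the 5 strongest regions was called. Of the 3 arachidonic acid enzymes listed, Cyp2u1 and Cyp2c44 rose at their strongest region.

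Knockout liver showed the same direction of change after refeeding at most of these genes. There 53 regions (25.6%) fell and 7 (3.38%) rose, against 11.4% and 13.3% of all regions, or 29.0% called in either direction against 24.7%, and the median was -0.36 against 0.02. The share of the total value in Cyp regions was 0.399%, 0.395% and 0.396% in knockout fasted and 0.304%, 0.318% and 0.301% in knockout refed libraries, without overlap. The regions that fell in both genotypes numbered 40, which is 66.7% of those that fell in control and 75.5% of those that fell in knockout liver, against 51.2% and 75.5% over all regions. The 6 regions that rose in both were 40.0% of the rises in control and 85.7% of those in knockout liver, against 65.1% and 64.4% over all regions. All 60 regions that fell in control liver had a change below 0 in knockout liver, as had 10108 of the 10705 over all regions. No Cyp region was called in opposite directions, and only 37 of all 63686 regions were.

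By gene, the strongest regions of 17 genes fell in both genotypes and those of 4 rose in both, namely Cyp2c65, Cyp2j6, Cyp2j9 and Cyp2u1. These counts likewise have no background share over the strongest regions of all genes. Cyp2c38, Cyp2d13 and Cyp2d26 fell in knockout liver and were not called in control liver, and Cyp2a12 the other way round. In knockout liver the call of Cyp2c38 was lost without knockout refed replicate 2 or 3 or fasted replicate 2, and that of Cyp2j9 without knockout refed replicate 1 or 2 or fasted replicate 2 (limma, adjusted p up to 0.0879 and 0.0825). Cyp2d9 and Cyp2u1 lost theirs without knockout fasted replicate 3, and Cyp3a13 without knockout refed replicate 1 or fasted replicate 2 (adjusted p up to 0.0529, 0.0536 and 0.0692). The call of Cyp2d9 was also lost after quantile normalization (limma, adjusted p = 0.102). Cyp2c44, Cyp2c67, Cyp2d40 and Cyp2r1 rose in control liver only by the call, with changes in knockout liver of -0.16, 0.21, 0.23 and 0.27. A call in one genotype and not in the other does not show that the genotypes differ, and a missing interaction call does not show that they respond alike. No Cyp region was called for the interaction of genotype and feeding by limma (0 of 207, against 0.0236% of all regions, 0.0157% higher and 0.00785% lower). At an unadjusted p under 0.05, 16 Cyp regions (7.73%) and 9.54% of all regions would have passed that test. edgeR called none of the Cyp regions for the interaction and DESeq2 called 2.

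Values in knockout liver lay near those of control liver at some of the genes that fell, while Cyp2b10, Cyp2c44, Cyp2d40 and Cyp2j9 had changes nearer 0 or of the other sign. Cyp3a25 held 5463, 5936 and 6621 normalized reads in knockout fasted and 2970, 2997 and 2643 in knockout refed liver, with no overlap and a change of -1.06 ± 0.15 (limma, adjusted p = 0.000139). Cyp2g1 changed by -1.58 ± 0.18, Cyp2b19 by -2.05 ± 0.32 and Cyp2a22 by -1.20 ± 0.18 (adjusted p = 2.15e-05, 0.000317 and 0.000269). Cyp2c37 held 414, 513 and 265 when fasted and 161, 175 and 187 when refed, a fall of 1.13 with no overlap (adjusted p = 0.00158). Cyp1a2 fell by 0.63 (adjusted p = 0.00168). The region of the pseudogene Cyp2d37-ps (chr15:82521210-82530059) had the smallest adjusted p of the falls in knockout liver (2.64e-06), going from 1750, 1543 and 1537 to 668, 600 and 647 normalized reads.

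Partners of these enzymes were measured at the strongest region of each gene of lists chosen by role. For scale, 16.8% of all regions fell and 13.2% rose in control liver, and 11.4% and 13.3% in knockout liver. The lists are short, and those shares cover regions of every strength. Of 5 electron donors, 3 fell and 1 rose in each genotype, with changes from -1.57 to 0.70 in control and from -1.23 to 0.58 in knockout liver. The largest fall was that of Por, the P450 oxidoreductase that serves all of these enzymes, by 1.57 in control and by 1.23 in knockout liver (SE 0.14 for each). Of 8 haem enzymes with a region, 4 fell and none rose in each genotype, among them Cpox, of haem synthesis, with -0.64 ± 0.08 in control liver. Of 7 sensors, 3 fell and 2 rose in control liver. Nr1i3, which encodes CAR, changed by -1.16 ± 0.14 in control and -0.95 ± 0.14 in knockout liver, Nr1i2, which encodes PXR, by -0.31 ± 0.11 and -0.52 ± 0.11, and Ahr, the Ah receptor gene, fell by 0.33 in control liver, while Tiparp, a target of that receptor, rose by 0.79.

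Markers of some liver cell types also moved with feeding, and their part in these results was not tested. In control liver 3 of 7 hepatocyte and 2 of 5 endothelial marker regions fell, all 3 cholangiocyte ones rose, and no stellate or Kupffer one was called. In knockout liver 4 hepatocyte and 1 endothelial marker regions fell, and 2 cholangiocyte, 1 stellate and 1 Kupffer ones rose. Over 7 hepatocyte marker regions the summed value was 40002 to 47735 normalized reads in control fasted and 35191 to 40519 in control refed libraries, and 38528 to 42567 and 34112 to 34616 in knockout ones. Over 3 of 5 cholangiocyte markers, with Krt7 and Krt19 having no region, it was 1377 to 1603 and 1978 to 2457 in control, and 1287 to 1864 and 2155 to 2357 in knockout libraries. For 5 markers of sinusoidal endothelium it was 5467 to 6106 and 4189 to 4773 in control, and 4459 to 4944 and 4405 to 5059 in knockout libraries. The 5 stellate markers summed to 698 to 873 and 749 to 819 in control and 558 to 710 and 635 to 732 in knockout libraries, and 4 of 5 Kupffer cell markers to 402 to 554 and 429 to 520, and 356 to 424 and 472 to 576. No marker region was at 0 in any library.

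Few Cyp regions were called different between knockout and control liver by limma. In fasted liver none of the 207 was called by limma in either direction, against 0.312% of all regions higher and 0.245% lower, 0.557% in all. At an unadjusted p under 0.05, 31 of 207 Cyp regions and 8466 of all 63686 regions differed. edgeR called none either, and DESeq2 called 1, lower in the knockout, a region of Cyp2a22 (chr7:27700371-27704255) with a GATA4 peak of the authors within 500 bp. It held 327, 267 and 265 normalized reads in control fasted and 114, 216 and 160 in knockout fasted liver, and 190, 168 and 170 in control refed and 76.5, 106 and 128 in knockout refed liver. Each knockout library lay below each control library of the same feeding state. The changes were -0.85 ± 0.22 and -0.79 ± 0.22 (limma, adjusted p = 0.104 and 0.0790), the former 0.0429 without knockout fasted replicate 2. The authors' deposited tables list the region at a false discovery rate of 0.0261 in fasted and 0.00339 in refed liver. This region was singled out after its values were seen.

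In refed liver 4 Cyp regions (1.93%) rose and 2 (0.966%) fell in the knockout, against 1.73% and 0.297% of all regions, or 2.90% in either direction against 2.02%, so the share that rose was near the background. At an unadjusted p under 0.05, 45 of 207 Cyp regions and 11450 of all regions differed. The median change was 0.17 over the Cyp regions and 0.10 over all regions, and after quantile normalization the latter was -0.02. The 4 that rose were a pair near Cyp2b10 and 1 each near Cyp2c70 and Cyp2d13, and the 2 that fell were near Cyp2j9 and Cyp2d22. None of the 4 rises was called after median-ratio rescaling, after quantile normalization or by edgeR, and each of the 6 calls was lost without at least 1 library.

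Cyp2b10, the best known target of CAR, was higher in knockout than in control refed liver at 2 adjoining regions. The one over its start site (chr7:26677599-26684495) held 1658, 1356 and 1653 normalized reads in control fasted, 649, 752 and 714 in control refed, 1681, 1197 and 1343 in knockout fasted and 1053, 956 and 1196 in knockout refed liver. The knockout refed libraries lay above the control refed ones, and the highest of them, at 1196, came next to the lowest knockout fasted library, at 1197. Knockout exceeded control in refed liver by 0.59 ± 0.13 (limma, adjusted p = 0.0283), and after each left-out library the adjusted p was 0.0221 to 0.105. The call was lost in 4 of these fits, those without control refed replicate 1 or 3 or knockout refed replicate 1 or 3. Refeeding changed it by -1.14 ± 0.13 in control and -0.39 ± 0.13 in knockout liver (adjusted p = 9.44e-06 and 0.0346), the latter call lost without knockout refed replicate 1 or 2 or fasted replicate 1 or 3, with an adjusted p up to 0.167. The test of the difference between these gave 0.75 ± 0.18 with an adjusted p of 0.162.

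Farther upstream (chr7:26668701-26677498) the values at Cyp2b10 were 1431, 967 and 1594 in control fasted, 415, 439 and 517 in control refed, 1260, 885 and 903 in knockout fasted and 835, 648 and 945 in knockout refed liver. Control refed libraries were thus the lowest of all, and the knockout groups overlap. Knockout exceeded control in refed liver by 0.81 ± 0.19 (limma, adjusted p = 0.0385), a call lost in 6 of 12 fits without 1 library, those without any 1 control refed library, knockout fasted replicate 3 or knockout refed replicate 1 or 3 (adjusted p up to 0.139). The region changed by -1.52 ± 0.19 after refeeding in control liver (limma, adjusted p = 2.44e-05) and was not called in knockout liver (-0.33 ± 0.19, adjusted p = 0.224). The interaction was 1.19 ± 0.26 with an adjusted p of 0.137, which was 0.0281 without control fasted replicate 2 and 0.0128 with DESeq2. The authors' deposited interaction table lists this region at a false discovery rate of 0.0192 and the one over the start site at 0.00546.

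Cyp2j9 went the other way. Its strongest region held 777, 708 and 737 normalized reads in knockout fasted and 1037, 1214 and 815 in knockout refed liver, against 1507, 1533 and 1452 in control refed liver. Refed knockout libraries lay between the fasted and the control refed ones. In refed liver the knockout was lower by a log2 change of -0.57 ± 0.12 (limma, adjusted p = 0.0304, and 0.0213 to 0.0962 after each left-out library), a call lost without any 1 of the control refed libraries or without knockout refed replicate 1 or 3. It was also lost after quantile normalization and with only the groups compared (adjusted p up to 0.0675). The interaction was -0.74 ± 0.17 (adjusted p = 0.161, and 0.0325 with DESeq2), and the authors' deposited interaction table gives 0.00554. That table lists 4 of the 207 Cyp regions and 972 of all 63686 regions. The fourth Cyp region was at Cyp2c44 with 0.0442, where the limma interaction was -0.56 ± 0.16 (adjusted p = 0.257).

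The other calls in refed liver were small or weak. Cyp2d22 held 5258, 5041 and 5246 normalized reads in control refed and 4243, 4442 and 4491 in knockout refed liver at its promoter, where a GATA4 peak lies within 500 bp. In fasted liver it held 5215, 4959 and 4665 in control and 4084, 4260 and 4336 in knockout mice, so that the genotypes did not overlap in either state. The changes were -0.24 ± 0.06 in refed (limma, adjusted p = 0.0468) and -0.23 ± 0.06 in fasted liver (adjusted p = 0.0987), and the refed call was kept only without control fasted replicate 1 or 3 among the 12 fits that left out 1 library (adjusted p up to 0.146). It was also lost after median-ratio rescaling, after quantile normalization, by edgeR and with only the groups compared (adjusted p up to 0.187). Cyp2c70 differed by 0.91 ± 0.22 at its intronic region (adjusted p = 0.0465), a call kept only without control fasted replicate 1, control refed replicate 1 or knockout refed replicate 1 among those 12 fits (adjusted p up to 0.152). Cyp2d13 differed by 1.96 ± 0.46 at a weak region of 10.0, 2.78 and 6.22 normalized reads in control refed and 32.6, 19.3 and 24.8 in knockout refed liver (chr15:82478399-82478914, adjusted p = 0.0411). That call was kept without control fasted replicate 1 or 3, knockout fasted replicate 2 or control refed replicate 1 and lost in the other 8 fits (adjusted p up to 0.128).

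Among the partners outside the families, Ahr was lower in knockout fasted liver by a log2 change of -0.35 (limma, adjusted p = 0.0443), and no electron donor or haem enzyme was called between genotypes. The 15 Cyp regions with a GATA4 peak nearby had a median change in the knockout of -0.07 in fasted and -0.16 in refed liver, and the other 192 of 0.15 and 0.22. Over all regions of the table the same medians were -0.03 and -0.02 with a peak, and 0.05 and 0.12 without one. The authors' deposited tables list 9 of the 207 Cyp regions and 2021 of all 63686 regions as different between genotypes in fasted liver. In refed liver they list 23 of the 207 and 4200 of all regions, and over both feeding states 0 of the 207 and 301 of all regions.

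Cyp2b9 and Cyp2b13, whose near-identical promoters are shown above, are female-predominant genes that growth hormone is known to hold down in male mice. At Cyp2b9 (chr7:26951488-26958203) the libraries held 284, 162 and 0 normalized reads in control fasted, 1.00, 751 and 2.11 in knockout fasted, 0, 0.928 and 142 in control refed, and 180, 0 and 95.8 in knockout refed liver. At Cyp2b13 (chr7:26838048-26842723) they held 207, 128 and 0, then 2.01, 494 and 0, then 0, 0 and 115, and 95.6, 2.28 and 49.5, in the same order. The same 6 libraries were thus at 3 reads or fewer at both genes, and each of the 4 groups had libraries of both kinds. Only 3 regions of the whole table had exactly these libraries at 3 reads or fewer, and all 3 were at Cyp2b9 or Cyp2b13. The set of libraries was read from these genes, so finding their regions again was fixed in advance. Not all 3 regions of Cyp2b13 were among them. Whether reads were shared between the near-identical copies was not tested. Neither gene was called in any comparison, and a group mean describes neither kind of library. Cyp2a4, a steroid hydroxylase that is also female-predominant, held 480, 276 and 506, then 961, 116 and 661, then 635, 387 and 300, and 471, 966 and 336 normalized reads in the same order (chr7:27085305-27095042). Cyp2a4 was well above 0 in every library, and its lowest, at 116, was the knockout fasted library with the highest Cyp2b9 and Cyp2b13 values. Within each group, every library at 3 reads or fewer at Cyp2b9 and Cyp2b13 had a higher Cyp2a4 value than every other library. Across groups the values overlapped, with 387 in one of the former and 480 in one of the latter. This order was found after the values were seen, and its cause was not tested.

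**Figure D4:**
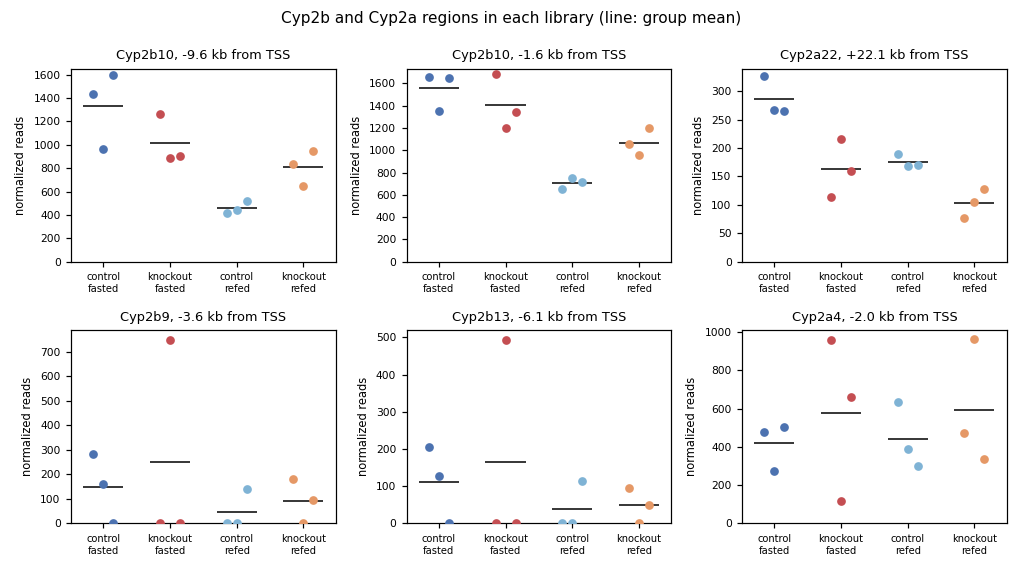
Normalized H3K27ac reads in each library at 6 regions of Cyp2b and Cyp2a genes, named by the distance of the region's centre from the start site, with a line at each group mean. The Cyp2b10 pair is lowest in control refed liver, and Cyp2b9 and Cyp2b13 are at or near 0 in the same 6 libraries. At the Cyp2a22 region each knockout library lies below each control library of the same feeding state. Limma did not call that region in either state, and it was singled out after its values were seen.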

How the data were processed

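H3K27ac ChIP-seq values of 12 liver libraries, 1 per mouse, were analysed, and 12 input libraries were not used. The authors deposited a signal value for each of 63686 regions, a whole number of reads divided by 1 factor per library: 100% of values were within 0.01 of a whole read. A value of 1 read was 0.836 to 1.15, and precision for weak regions is limited by counting, while SEs rest on the spread between mice. Per the submitters' processing notes, Bowtie2 and MACS2 were used on mm9, with DiffBind and edgeR, beside tools for trimming and annotation. Whether input was subtracted, and tool versions, the sources used here do not give. Gene names and annotation are those of HOMER, per the file headers. The authors' 4 comparison tables give a false discovery rate, an adjusted p-value, per the file headers. A deposited column gives GATA4 peaks within 500 bp, and the libraries behind them were not analysed here.

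Tests used limma 3.58.1 (R 4.3.3) on log2(value + 1), 1 fit of 4 groups with an intensity trend and no covariate, adjusted by Benjamini-Hochberg over all regions and called at an adjusted p under 0.05. The pipeline was tested on simulated data. Fold changes on this scale understate changes of weak regions. The strongest region of 19 of 20 listed genes was named in every comparison, with the called regions of smallest adjusted p (10 a direction, 1 per gene). Other regions were named after their values were seen. Members and lists were chosen with earlier results of these data known. As alternatives, the pseudocount was set to 5 or 0.5 and the weakest regions were dropped. Others were median-ratio rescaling, quantile normalization, edgeR 4.0.16 and DESeq2 1.42.0 on recovered reads, only the groups compared, and leaving out each library. The labels do not say whether mice of a group were housed apart.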

Additional observations from a re-analysis of the deposited data

How the results depend on the processing

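No paired analysis was possible because the labels give mice of different groups different numbers, so no number is shared across groups. The counts of Cyp regions after refeeding held their size in control liver: 15 rises became 11 to 17 without 1 library and 13 to 18 under the other alternatives, and 60 falls became 52 to 60 and 50 to 60. In knockout liver 53 falls became 42 to 58 and 49 to 62, and 7 rises became 5 to 13 without 1 library (13 without knockout refed replicate 3) and 7 to 10. In fasted liver the count lower in the knockout was 0, 1 with DESeq2 and 0 to 1 without 1 library (1 without knockout fasted replicate 2). In refed liver the 4 regions higher in the knockout became 0 with median-ratio rescaling, 0 with quantile normalization, 0 with edgeR, 6 with DESeq2, 2 with only the groups compared and 1 to 5 without 1 library. The 2 regions lower became 1 with median-ratio rescaling, 0 with quantile normalization, 1 with edgeR, 6 with DESeq2, 1 with only the groups compared and 0 to 3 without 1 library. The interaction count of 0 became 2 with DESeq2 and 0 to 1 without 1 library (1 without control fasted replicate 2). The cause of these differences was not tested. Quantile normalization moved the median of all regions in refed liver by -0.12 between genotypes. Of 75 calls after refeeding in control liver 57 were kept in every fit without 1 library, and of 60 in knockout liver 36. Of 125 results for single named regions, 53 were called, none of these changed sign under any alternative and 14 lost the call under at least 1. Of the 72 not called, 33 changed sign under at least 1 alternative, so their direction is not given weight, and 2 gained a call: Cyp2c70 in control refeeding without control refed replicate 2, and Cyp2r1 in knockout refeeding without control fasted replicate 3. Regions with a few reads in every library are limited by counting. Cyp2b9 and Cyp2b13 had up to 682 and 449 reads in some libraries and 0 in others. Their fitted signs changed under some alternatives between genotypes in fasted liver and after refeeding in knockout liver. The sign of the interaction changed at Cyp2b13 only. No alternative changed their signs between genotypes in refed liver or after refeeding in control liver.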
